A study of Homo sapiens with 4 samples.

Results

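The genes described here encode the subunits of nonmuscle myosin II and the kinases that phosphorylate its regulatory light chain. They were chosen by name, as 3 heavy chain genes (MYH9, MYH10 and MYH14), the essential light chain gene MYL6, 3 regulatory light chain genes (MYL9, MYL12A and MYL12B) and 3 kinase genes (MYLK, ROCK1 and ROCK2). These 10 genes were all found among the 58825 gene rows of the count files, and 9 of them were among the 13801 genes with enough reads to be tested. MYL9 was the member that fell below the filter on low counts. Of the 9 tested members, 7 passed an adjusted p of 0.05 between MET-KO and MET+ cells, 3 of them higher in MET-KO cells (MYH10, MYH14 and MYLK) and 4 lower (MYH9, MYL12B, ROCK1 and ROCK2). Over all tested genes 54.1% passed, 27.2% as higher and 26.9% as lower, so that a call by itself was common in this comparison. All values that follow were read against that background.

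The libraries came from LoVo, an established line of colorectal adenocarcinoma that carries an uncleaved MET receptor that signals without its ligand. MET+ cells had the wild-type genotype and were described as GFP controls, and MET-KO cells carried a CRISPR/Cas9 knock-out of MET, with 2 biological replicates of each. Both were grown in DMEM with 10% serum, and no further treatment is given in the labels. Total RNA was read from the 3' end of the transcripts with a QuantSeq FWD kit. It gives about 1 read for each transcript whatever its length, so that counts do not grow with transcript length. Genes may still differ in how well their transcripts are read. Levels and ratios of different genes are thus given as counts, not as transcript numbers. The knock-out was made by transfecting the nuclease with a puromycin marker, a GFP plasmid and the guide, and single clones were then picked and chosen by Western blot. Whether both MET-KO libraries came from 1 clone is not given in the sources used here, and the loss of MET and other differences between the clone and the control cells cannot be told apart. Because replicates may share a culture history, the p-values measure the spread between these libraries. In bulk RNA, fewer cells that express a gene and less of its RNA per cell cannot be told apart.

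Nonmuscle myosin II is a hexamer of a pair of heavy chains, a pair of essential light chains and a pair of regulatory light chains, and it assembles into bipolar filaments that pull on actin. The heavy chain genes MYH9, MYH10 and MYH14 give the isoforms IIA, IIB and IIC. Phosphorylation of the regulatory light chain on a neighbouring threonine and serine allows filament assembly and raises the motor's activity. Myosin light chain kinase, the product of MYLK, does this when calmodulin binds calcium, whereas the kinases ROCK1 and ROCK2 phosphorylate the same chain and also inhibit the phosphatase that removes the phosphate. Contractile actomyosin bundles of this kind form stress fibres and the perinuclear actin cap, the structures for which these MET+ and MET-KO cells were studied.

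The coding sequence around the phosphorylated residues is shown because it is the substrate that links the light chains to the kinases, and because it shows how alike the genes are whose reads had to be told apart. The stretches below are 60 coding bases from GENCODE version 29 transcripts on GRCh38, all on the plus strand, with the threonine and serine codons in capitals. Counted from the start codon, they are codons 19 and 20 in MYL9 and MYL12B, and codons 18 and 19 in MYL12A.
MYL9 chr20:36544912-36544971: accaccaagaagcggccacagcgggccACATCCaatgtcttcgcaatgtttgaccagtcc
MYL12A chr18:3253272-3253331: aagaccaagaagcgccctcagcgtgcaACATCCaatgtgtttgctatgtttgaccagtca
MYL12B chr18:3272926-3272985: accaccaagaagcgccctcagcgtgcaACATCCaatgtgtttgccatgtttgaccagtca
The codons in capitals were identical in the 3 genes. MYL12A and MYL12B differed at 3 of the 60 bases, MYL9 and MYL12B at 8, and MYL9 and MYL12A at 10. Over their whole coding sequences MYL12A and MYL12B were 95.2% identical, against 81% for MYL9 and MYL12B and 79.1% for MYL9 and MYL12A. The heavy chain genes were less alike, with 74% coding identity between MYH9 and MYH10, 71.4% between MYH9 and MYH14 and 67.1% between MYH10 and MYH14, and ROCK1 and ROCK2 shared 67.9%. In the last 500 bases of the transcript, where 3' reads fall, 53 of the 451 stretches of 50 bases (11.8%) were shared between MYL12A and MYL12B, and no such stretch of any other member was found in another gene. Reads from these shared stretches could have been assigned to either gene or dropped, and the authors' handling of them is not given.

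The libraries held 8429142 to 10286552 counts, and log CPM values correlated at 0.985 and 0.99 within groups and at 0.827 to 0.832 between groups. The targeted gene MET (ENSG00000105976), on chromosome 7, had 337 and 335 CPM (a gene's reads as a share of the library, scaled by TMM) in MET+ and 84.3 and 88.7 CPM in MET-KO cells, 25.7% of the MET+ level (adjusted p = 1.49e-18, edgeR's quasi-likelihood test). The 4 libraries expressed the epithelial genes EPCAM, KRT8, KRT18 and KRT19, and of these only KRT8 was not called lower in MET-KO cells. EPCAM fell from 439 and 435 CPM to 195 and 211 CPM (log2 fold change -1.11, edgeR adjusted p = 2.18e-12). Of 11 tested genes among 12 colon epithelium markers, 8 were lower in MET-KO cells and 2 higher. Of the lower ones, CEACAM5 and CDH17, named after their values were seen, had no count in either MET-KO library. The other lower ones were EPCAM, CDH1, KRT18, KRT19, VIL1 and LGALS4. The 2 higher ones, likewise named after their values were seen, were CDX2 and KRT20. CDX2 rose from 63.3 and 66.4 CPM to 145 and 123 CPM (log2 fold change 1.04, edgeR adjusted p = 1.93e-10). KRT20 was undetected in MET+ cells and had 27 and 28 counts in MET-KO cells. A filter of at least 10 counts in every library drops genes near 0 in 1 group. With it, 4 markers of this list were called lower and 1 higher. The lines also differed by chromosome, from a median log2 fold change of -0.51 over the tested genes of chromosome 14 to 0.50 on chromosome 7 among the autosomes. On chromosome Y the median log2 fold change of the 13 tested genes was 9.99, far outside the range of the autosomes. Of these genes, 12 were called higher in MET-KO cells and none lower. A gene can pass the filter on low counts through 1 group alone, so this count is a description and not a test. The part that clone, chromosome content or cell state had in the values of the myosin genes was not tested.

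Within the myosin II genes, levels in CPM in MET+ cells ran from MYL6, through MYL12B, MYH9, MYL12A, ROCK1, ROCK2, MYH10, MYH14 and MYLK, to MYL9. No neighbours in this order overlapped in MET+ cells. In MET-KO cells MYL6 was again the highest, followed by MYL12A, MYL12B and MYH9, with MYL12A and MYL12B overlapping, and the lower places were as in MET+ cells.

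**Figure D1:**
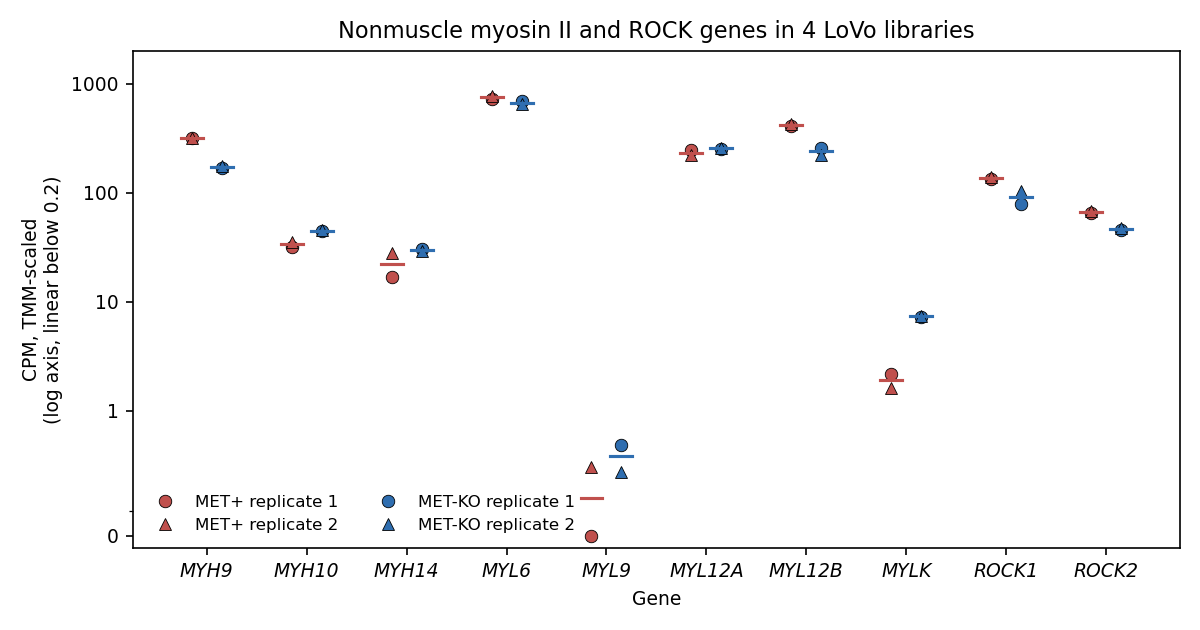
Level of the 10 genes in each library, in TMM-scaled CPM on a log axis that is linear near 0, with 2 MET+ and 2 MET-KO libraries as points and their mean as a line. MYH9, MYL12B, ROCK1 and ROCK2 lie lower in both MET-KO libraries, MYH10, MYH14 and MYLK lie higher, and MYL9 lies near 0 in all 4.

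MYH9, the gene of the IIA heavy chain that is the most abundant in most nonmuscle cells, fell in MET-KO cells. MYH9 (ENSG00000100345, GRCh38 chromosome 22, 36281277 to 36388067, minus strand) had 319.9 and 317 CPM in the MET+ libraries and 169.5 and 177 CPM in the MET-KO libraries. Both MET-KO values were far below both MET+ values, with means of 319 ± 1.76 CPM (SD, n = 2) and 173 ± 5.25 CPM (SD, n = 2). The MET-KO level was 54.4% of the MET+ level, a log2 fold change of -0.88 (standard error 0.09, 95% interval -1.06 to -0.69, adjusted p = 4.33e-10, edgeR quasi-likelihood test, Benjamini-Hochberg method). Among the 346 tested genes of chromosome 22, whose median log2 fold change was 0.08, MYH9 stood at percentile 7.51.

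MYH10, the gene of the IIB heavy chain, moved the other way. MYH10 (ENSG00000133026, chromosome 17, 8474205 to 8630761, minus strand) had 31.7 and 35.4 CPM in MET+ cells and 44.4 and 45.1 CPM in MET-KO cells. The groups did not overlap, and the means were 33.5 ± 2.56 and 44.8 ± 0.493 CPM (SD, n = 2 each). The log2 fold change was 0.41 (standard error 0.12, 95% interval 0.17 to 0.66, edgeR adjusted p = 0.00434). Its last 500 bases overlap the span of NDEL1 on the other strand, and the exons of NDEL1 were not compared. NDEL1 was called lower after knock-out (403 and 547 counts against 385 and 389), and the strand setting of the counting is not given.

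MYH14 encodes the IIC heavy chain, which is found mainly in epithelia. MYH14 (ENSG00000105357, chromosome 19, 50188186 to 50310544, plus strand) had 16.8 and 28.1 CPM in MET+ cells and 30.3 and 29.5 CPM in MET-KO cells. Both MET-KO values were above both MET+ values, but the MET+ values differed from each other by more than the higher of them differed from the MET-KO values. The log2 fold change of 0.40 (standard error 0.16, 95% interval 0.07 to 0.74) had an edgeR adjusted p of 0.0376. The call was lost without MET+ replicate 1 (log2 fold change 0.09, edgeR adjusted p = 0.663), without MET-KO replicate 1 (0.38, edgeR adjusted p = 0.0828) and in DESeq2 (0.41, adjusted p = 0.148). Without MET+ replicate 2 the log2 fold change was 0.83.

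The mixture of heavy chain transcripts differed between the groups. MYH9 made up 86.8% (Wilson 95% interval 85.6 to 88) and 83.3% (82.1 to 84.5) of the summed heavy chain counts in MET+ cells, and 69.4% (67.6 to 71.2) and 70.3% (68.6 to 72) in MET-KO cells. The MET-KO intervals lay below the MET+ intervals, with means of 85.1 ± 2.47% and 69.9 ± 0.666% (SD, n = 2 each), a difference of -15.2 percentage points. MYH10 made up 8.61% (7.67 to 9.66) and 9.28% (8.39 to 10.3) in MET+ cells and 18.2% (16.7 to 19.8) and 17.9% (16.5 to 19.4) in MET-KO cells. MYH14 made up 4.55% (3.87 to 5.35) and 7.37% (6.57 to 8.26) in MET+ cells and 12.4% (11.2 to 13.8) and 11.7% (10.6 to 13) in MET-KO cells. The MYH10 and MYH14 shares were thus larger in both MET-KO libraries, by 9.12 and 6.11 points in the mean. There were 10.1 and 8.98 counts of MYH9 per count of MYH10 in MET+ cells, and 3.81 and 3.92 in MET-KO cells. With 2 libraries against 2, the exact permutation test cannot give a two-sided p below 0.333, and it gave 0.333 for each heavy chain share. The intervals cover counting error only, and not the spread between libraries. For MYH9 and for MYH14 the intervals of the 2 MET+ libraries also lay apart from each other. Because reads were made by PCR and carry no molecular identifiers in the files, the intervals may understate the counting error as well. The summed heavy chain level was 368 and 381 CPM in MET+ cells and 244 and 252 CPM in MET-KO cells, which did not overlap (log2 ratio -0.60).

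**Figure D2:**
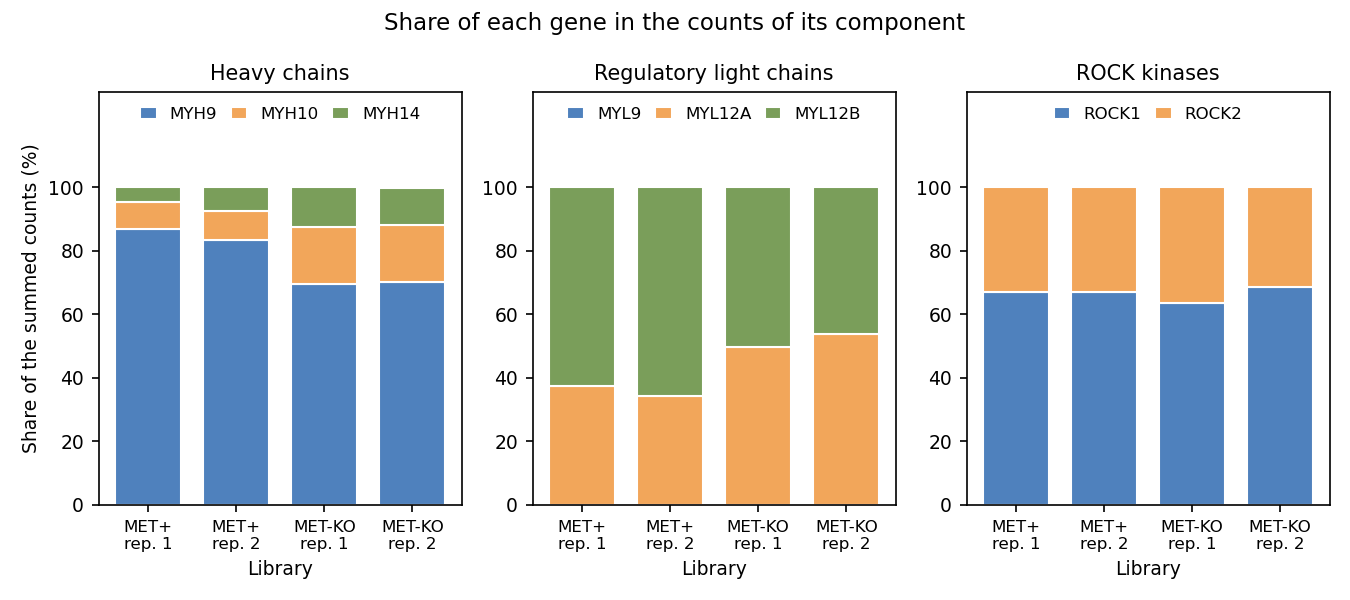
Share of each gene, in percent of the summed counts of its set, as stacked bars for the 2 MET+ and 2 MET-KO libraries, with heavy chains, regulatory light chains and ROCK kinases in separate panels. MYH9 takes 83.3% or more of the heavy chain counts in MET+ and at most 70.3% in MET-KO cells, the MYL12A share lies nearer to that of MYL12B in MET-KO cells, and the ROCK1 share overlaps between groups.

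MYL6, the gene of the essential light chain that stabilizes the lever arm of the heavy chain, had the most reads of the members and did not pass the test. MYL6 (ENSG00000092841, chromosome 12, 56158161 to 56163496, plus strand) had 720.1 and 775 CPM in MET+ cells and 694 and 645 CPM in MET-KO cells. Both MET-KO values lay below both MET+ values. The log2 fold change was -0.16 (95% interval -0.35 to 0.03, edgeR adjusted p = 0.142), and the chromosome 12 median was -0.32. Per count of heavy chain there were 1.95 and 2.04 counts of MYL6 in MET+ cells and 2.84 and 2.56 in MET-KO cells. MYL6B, a related light chain gene that overlaps MYL6 on the same strand outside its last 500 bases, had 93 and 93.8 CPM in MET+ cells, against 88.8 and 81.5 CPM in MET-KO cells (log2 fold change -0.13, 95% interval -0.34 to 0.07, edgeR adjusted p = 0.268). The MYL6 share of both was 88.9% in MET+ and 88.7% in MET-KO cells in the mean, with overlapping groups.

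The neighbouring regulatory light chain genes MYL12A and MYL12B, 5.24 kb apart on chromosome 18, gave different results in the test. MYL12B (ENSG00000118680, chromosome 18, 3261479 to 3278431, plus strand) had 405 and 425 CPM in MET+ cells and 257 and 222 CPM in MET-KO cells. Its level in MET-KO cells was lower in both libraries, at 57.7% of that in MET+ cells, a log2 fold change of -0.79 (standard error 0.09, 95% interval -0.98 to -0.60, edgeR adjusted p = 8.35e-09). MYL12A (ENSG00000101608, chromosome 18, 3247481 to 3256236, plus strand) had 244 and 223 CPM in MET+ cells and 253 and 258 CPM in MET-KO cells. Both MET-KO values lay above both MET+ values, but the difference did not pass the test (log2 fold change 0.13, 95% interval -0.05 to 0.32, edgeR adjusted p = 0.23). With scaling by library totals only, MYL12A passed as higher (0.23, edgeR adjusted p = 0.0271), a scaling that moved the median of all tested genes from 0.01 to 0.11. The chromosome 18 median was 0.01 over 218 tested genes.

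MYL9, the regulatory light chain gene of smooth muscle and of many mesenchymal cells, was barely detected in LoVo cells. MYL9 (ENSG00000101335, chromosome 20, 36541484 to 36551447, plus strand) had counts of 0 and 3 in MET+ cells, and of 5 and 3 in MET-KO cells. The pooled counts were 3 and 8, a rate ratio of 2.28 with a counting interval of 0.548 to 13.4, so that a difference was not detectable at this depth. An antisense gene whose span overlaps its end, DLGAP4-AS1, had 0 and 0 counts in MET+ and 4 and 3 in MET-KO cells.

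The regulatory light chain mixture was mostly MYL12B in MET+ cells and nearer to equal parts in MET-KO cells. MYL12A made up 37.6% and 34.4% of the regulatory light chain counts in MET+ cells and 49.5% and 53.8% in MET-KO cells, a mean of 36 ± 2.28% against 51.6 ± 2.98% (SD, n = 2 each). The groups did not overlap, and the difference was 15.6 points (exact permutation p = 0.333, the smallest possible). The summed level of the regulatory light chain genes was 649 and 648 CPM in MET+ cells and 511 and 481 CPM in MET-KO cells (log2 ratio -0.39). Per count of heavy chain, there were 1.76 and 1.7 counts of regulatory light chain in MET+ cells and 2.09 and 1.91 in MET-KO cells.

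The ROCK genes were both lower in MET-KO cells. ROCK1 (ENSG00000067900, chromosome 18, 20946906 to 21111851, minus strand) had 134 and 138 CPM in MET+ cells and 79.3 and 104 CPM in MET-KO cells. Both MET-KO values were below the MET+ values, although they were apart from each other. The log2 fold change was -0.57 (standard error 0.11, 95% interval -0.78 to -0.35, edgeR adjusted p = 3.4e-05), and it lay between -0.78 and -0.39 when single libraries were left out. ROCK2 (ENSG00000134318, chromosome 2, 11179761 to 11348330, minus strand) had 65.5 and 67.8 CPM in MET+ cells and 45.3 and 47.5 CPM in MET-KO cells. Its replicates were close together in both groups, and the MET-KO level was 69.6% of the MET+ level (log2 fold change -0.52, standard error 0.11, 95% interval -0.74 to -0.30, edgeR adjusted p = 0.000127).

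The balance of the pair was not seen to differ. The share of ROCK1 in the ROCK counts was 67.1% in each MET+ library, and it was 63.6% and 68.7% after knock-out. The groups overlapped, and the mean difference was -0.945 points (exact permutation p = 1). The summed ROCK level was 199 and 206 CPM in the control libraries and 125 and 152 CPM after knock-out (log2 ratio -0.55), without overlap between groups. The fold change of ROCK1 was at percentile 20.2 on chromosome 18, and that of ROCK2 at percentile 19.8 on chromosome 2.

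MYLK, the calmodulin-dependent light chain kinase, was expressed at a low level and was higher in MET-KO cells. MYLK (ENSG00000065534, chromosome 3, 123610049 to 123884331, minus strand) had counts of 18 and 16 in MET+ cells, and of 74 and 81 in MET-KO cells, which are 2.17 and 1.64 CPM against 7.24 and 7.45 CPM. The MET-KO level was 3.87-fold the MET+ level (log2 fold change 1.95, standard error 0.33, 95% interval 1.27 to 2.63, edgeR adjusted p = 7.83e-06), with 1.74 to 2.16 when single libraries were left out. This was the largest change in size among the members, at the lowest level of the 9 tested genes. The span of the antisense gene MYLK-AS1 overlaps its last 500 bases, and the exons of MYLK-AS1 were not compared. MYLK-AS1 had counts of 1 and 6 in the MET+ libraries and of 20 and 17 after knock-out (edgeR adjusted p = 0.00532). Whether any of its reads were counted for MYLK cannot be told without the strand setting.

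MYLK also gives telokin, a short product made from a start near the end of the gene, and reads from the 3' end cannot separate it from the kinase. The RefSeq promoter window of MYLK (GRCh38.p14, minus strand) lies at a start near the end of the gene, 264 kb downstream of the first GENCODE start, and it is shown because it contains a match to the CArG box, the motif bound by serum response factor. The match, in capitals, begins 94 bases before the RefSeq start.
MYLK chr3:123620603-123620672: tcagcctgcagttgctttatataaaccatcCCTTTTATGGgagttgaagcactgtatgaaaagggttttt
Promoter windows from 250 bases before to 50 bases after the start were given for 9 of the 10 members. The CArG box was found in 2 of them on either strand, MYLK and ROCK2, against 1.29% of all 35116 windows. ROCK2 fell and MYLK rose, so the windows with a match did not share a direction. The letters GGAATG, a core motif of TEAD factors, were found on either strand in 5 of 9 windows (MYH9, MYH10, MYL12A, MYLK and ROCK2), against 14% of all windows, and those genes were lower, higher, not called, higher and lower. The windows differ from GENCODE's first start by up to 264 kb, and by 2.89 kb for ROCK2. Within 50 bases of the RefSeq start lay 0 of 9 GENCODE transcript starts for ROCK2, 1 of 21 for MYLK and 0 of 11 for MYH9. For MYH10 it was 4 of 11, and for MYL12A 2 of 12. A match is thus a description of the window's sequence only, and it is not shown to lie at the start used in these cells.

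**Figure D3:**
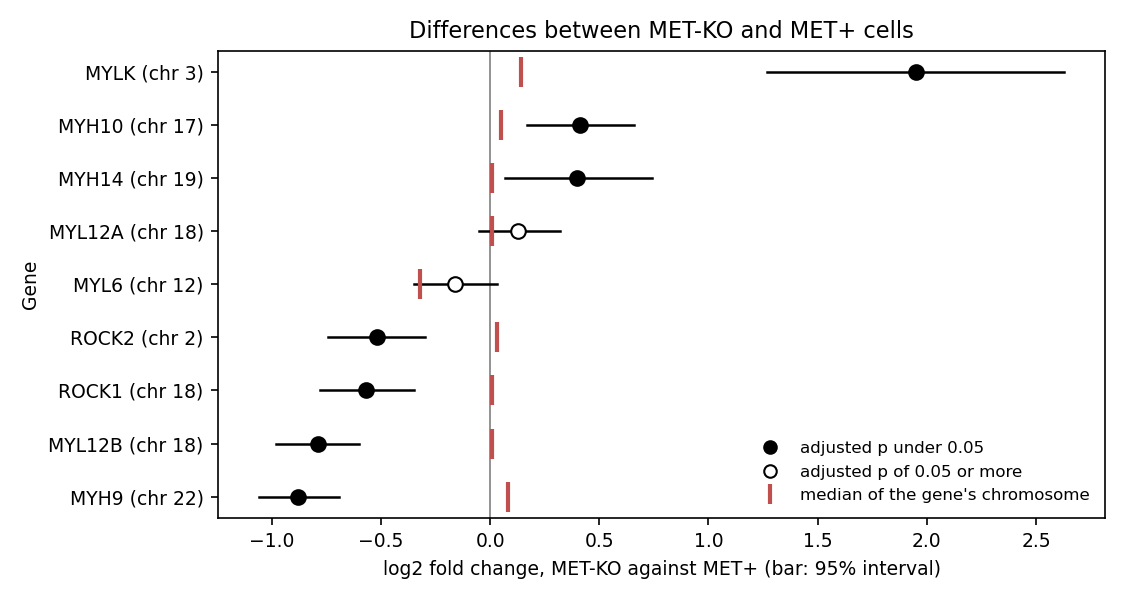
log2 fold change of each tested member in MET-KO against MET+ cells with its 95% interval from edgeR's quasi-likelihood test, and, as a red mark, the median of the tested genes of its chromosome. Filled points passed an adjusted p of 0.05. MYH9 and MYL12B lie farthest below 0 and MYLK farthest above, and the intervals of MYL6 and MYL12A include 0.

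The median log2 fold change of the 9 tested members was -0.16 and their median size 0.52, against 0.01 and 0.48 over all tested genes. In all 9 the MET+ and MET-KO values did not overlap, as in 75.6% of all tested genes. The members were thus close to the background in the size of their changes.

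The small GTPase genes upstream of the ROCK kinases, and the genes that switch them on and off, gave a mixed picture. Of 5 tested genes among 6 such GTPase genes, 1 rose and 2 fell. RHOA, the main activator of the ROCK kinases, had 443 and 484 CPM in MET+ cells, against 439 and 406 CPM in MET-KO cells and did not pass (log2 fold change -0.13, edgeR adjusted p = 0.226). RHOC had 78.3 and 89.6 CPM in MET+ cells, against 60.3 and 55.2 CPM in MET-KO cells and fell by 0.54 on the log2 scale (edgeR adjusted p = 6.4e-05). RHOB fell by 0.47 (53.8 and 49.4 against 36.2 and 38 CPM, edgeR adjusted p = 0.000874). RND3, whose product binds ROCK1 and reduces contractility, rose from 11.3 and 10.9 CPM to 50.6 and 47.8 CPM (log2 fold change 2.15, edgeR adjusted p = 1.21e-14).

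Exchange factors that load GTP onto these GTPases were called in 9 of 10 tested genes of a list of 11, 3 as higher and 6 as lower, with a median log2 fold change of -0.46. NET1 fell from 106 and 107 CPM to 45.6 and 46.2 CPM (log2 fold change -1.21, edgeR adjusted p = 5.81e-12), and AKAP13 fell from 147 and 157 CPM to 66.5 and 75.2 CPM (-1.10, edgeR adjusted p = 2.29e-11), on chromosome 15 with a median of -0.43. ARHGEF2, the microtubule-bound exchange factor, fell from 77.9 and 70.3 CPM to 40.4 and 39.1 CPM (-0.90, edgeR adjusted p = 2.16e-08). ARHGEF12 went the other way, from 44.4 and 48.2 CPM to 89.7 and 86.7 CPM (0.93, edgeR adjusted p = 4.81e-09).

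Of 11 tested genes among 13 GTPase-activating proteins of this family, 4 were higher and 4 lower, including the largest changes among the regulators. ARHGAP28 had no count in either MET+ library and counts of 254 and 351 after knock-out, at least 68.7-fold higher against a floor of 3 counts per library. ARHGAP29 fell from 167 and 159 CPM to 4.99 and 8.27 CPM (log2 fold change -4.61, edgeR adjusted p = 7.31e-24). ARHGAP26 fell from 23 and 20.3 CPM to 5.58 and 4.5 CPM (-2.10, edgeR adjusted p = 1.42e-10), on chromosome 5, where the median was -0.43. ARHGAP18 rose from 104 and 105 CPM to 234 and 247 CPM (1.21, edgeR adjusted p = 5.19e-13).

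Genes of the myosin phosphatase, which removes the phosphate from the regulatory light chain, were called in 4 of 7 tested genes of a list of 9, 2 as higher and 2 as lower. Only 1 was called higher in DESeq2, with no filter, with a replicate block and whenever a single library was left out, and only 1 was called lower with library totals only and without MET+ replicate 1. PPP1CB, the catalytic subunit, rose slightly (104 CPM in each MET+ library against 125 and 121 CPM after knock-out, log2 fold change 0.24, edgeR adjusted p = 0.0339). PPP1R12A, a targeting subunit that ROCK inhibits, had 84.8 and 83.7 CPM in MET+ cells, against 77.3 and 86 CPM in MET-KO cells, with overlapping groups (-0.04, edgeR adjusted p = 0.735). The related gene PPP1R12B, named after its values were seen, fell from 10.3 and 10.9 CPM to 3.72 and 5.42 CPM (log2 fold change -1.20, edgeR adjusted p = 0.000148). PPP1R14C, an inhibitor of the phosphatase, rose from 13.9 and 16.3 CPM to 26.9 and 24.5 CPM (0.76, edgeR adjusted p = 0.000134). PPP1R14B fell from 114 and 113 CPM to 91.5 and 92.5 CPM (-0.30, edgeR adjusted p = 0.00926).

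Other kinases of the light chain and the calmodulin genes had 3 higher and 4 lower genes among 10 tested of 13. CIT, the citron kinase of cytokinesis, fell from 23.4 and 19.1 CPM to 6.66 and 9.1 CPM (log2 fold change -1.42, edgeR adjusted p = 1.94e-07), on chromosome 12. CDC42BPB, which encodes the kinase MRCK beta, fell from 72.9 and 79.6 CPM to 36.6 and 36.4 CPM (-1.06, edgeR adjusted p = 6.18e-10), on chromosome 14, where the median was -0.51. DAPK3 rose from 11.1 and 12 CPM to 18 and 23.1 CPM (0.83, edgeR adjusted p = 0.000206).

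Calmodulin is the calcium sensor that activates the MYLK kinase. CALM2, a calmodulin gene, rose from 379.5 and 357 CPM to 948 and 901 CPM (log2 fold change 1.33, edgeR adjusted p = 3.03e-14), and both MET-KO values lay far above both MET+ values.

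LIM kinases, which ROCK activates and which inactivate the actin-severing protein cofilin, were higher in MET-KO cells. LIMK2 rose from 30.4 and 28.9 CPM to 198 and 179.6 CPM (log2 fold change 2.67, edgeR adjusted p = 1.1e-20), on chromosome 22. LIMK1 rose from 21.8 and 17.9 CPM to 34.5 and 32.3 CPM (0.75, edgeR adjusted p = 4.38e-05), on chromosome 7 with its median of 0.50. LIMK2 made up 60% of the LIM kinase counts in MET+ and 85% in MET-KO cells in the mean. CFL1, the main cofilin gene, had 845 and 864 CPM in MET+ cells, against 826 and 753 CPM in MET-KO cells and did not pass (-0.11, edgeR adjusted p = 0.308). Of the 10 genes of this list, all tested, 3 rose and 1 fell, the others being DSTN, which rose (0.23, edgeR adjusted p = 0.0266), and SSH3, a cofilin phosphatase, which fell (-0.54, edgeR adjusted p = 0.00292). Without MET+ replicate 1 no gene of this list was called lower, and the number called higher was 5 with library totals only and 2 without MET-KO replicate 1 or with a replicate block.

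Among 9 proteins that bind or regulate myosin filaments, 3 were higher and 2 lower. Only 1 was called lower with library totals only, in DESeq2, and without MET+ replicate 1, MET+ replicate 2 or MET-KO replicate 2. LIMCH1, which binds and activates myosin IIA, rose from 13.1 and 12.1 CPM to 81.6 and 89.4 CPM (log2 fold change 2.76, edgeR adjusted p = 7.39e-19). TRPM7, a channel kinase that phosphorylates the heavy chains, fell from 85.9 and 102 CPM to 47.6 and 53.2 CPM (-0.90, edgeR adjusted p = 1.64e-08), on chromosome 15. LLGL1 rose by 0.62 (edgeR adjusted p = 0.00151), and UNC45A, the myosin chaperone, fell by 0.28 on the log2 scale (edgeR adjusted p = 0.0194).

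**Figure D4:**
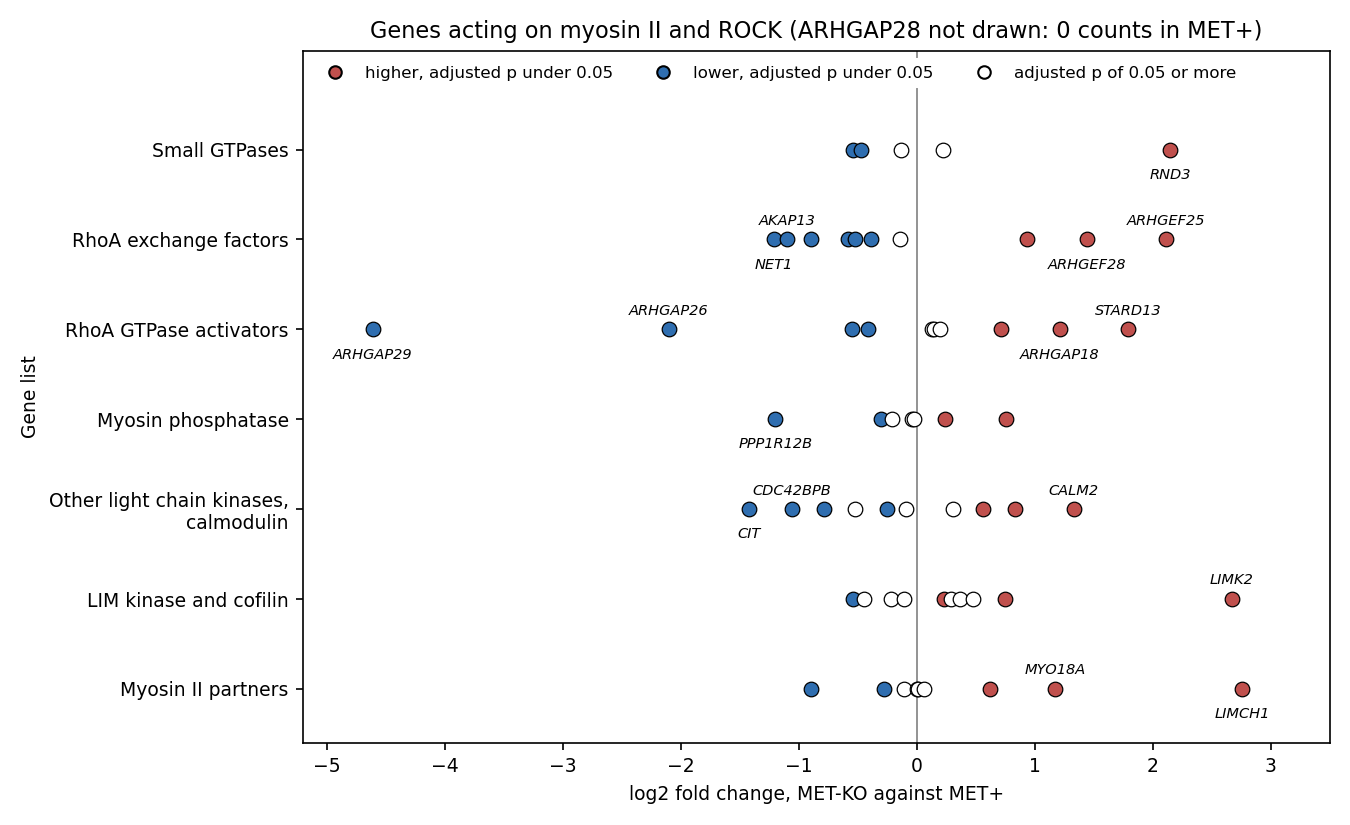
log2 fold change in MET-KO against MET+ cells of each tested gene in the lists that act on myosin II and ROCK, 1 point per gene, by list, filled where the gene passed and with names for genes that passed with a change of over 1 in size. Points lie on both sides of 0 in every regulator list, and ARHGAP28 is left out because it had no count in MET+ cells.

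Of 20 muscle-type myosin genes, 9 had no count in any library and 5 were tested. The list summed to 109 and 114 CPM in the MET+ libraries and to 103 and 96.8 CPM after knock-out, most of it from MYL6B. The smooth muscle heavy chain MYH11 had counts of 2 and 0 in MET+ cells and none in MET-KO cells. The 1 gene called was MYH15, named after its values were seen, with 29 and 50 counts in MET+ and 5 and 3 in MET-KO cells (edgeR adjusted p = 1.39e-06).

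Because MYLK and MYL9 are also genes of smooth muscle, markers of other cell types were read in the same libraries. Of the 8 smooth muscle markers 2 were tested, and their summed level was 48.5 and 51.3 CPM in MET+ cells, against 75.9 and 64.7 CPM in MET-KO cells. MYH11, DES, CNN1 and LMOD1 had at most 2 counts in any library, while ACTA2 rose from 83 and 91 counts to 329 and 266. SMTN made up most of the sum, with 38 and 41.9 CPM in MET+ cells, against 42.1 and 39.3 CPM in MET-KO cells. SYNPO2 had counts of 1 and 1 in MET+ cells, and of 10 and 7 in MET-KO cells. ACTG2 had counts of 0 and 0 in MET+ cells, and of 6 and 1 in MET-KO cells. LMOD1, SMTN, SYNPO2 and ACTG2 were named after their values were seen. The 8 fibroblast markers summed to 2.17 and 1.64 CPM in MET+ cells, against 3.62 and 4.32 CPM in MET-KO cells, with COL1A2, DCN and FAP at 0 in all libraries. Of the 2 fibroblast markers tested, COL3A1, named after its values were seen, was called higher, with counts of 4 and 5 in MET+ cells, and of 24 and 26 in MET-KO cells (log2 fold change 2.22, edgeR adjusted p = 0.00109). The 6 leukocyte markers summed to 6.15 and 9.73 CPM in MET+ cells, against 0.881 and 1.1 CPM in MET-KO cells, with PTPRC, CD3E and CSF1R at 0. Most of this sum in MET+ cells was LYZ, named after its values were seen, with counts of 38 and 79 in MET+ cells, and of 3 and 1 in MET-KO cells (log2 fold change -4.98, edgeR adjusted p = 4.25e-09). Whether these levels had a part in the MYLK difference was not tested.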

How the data were processed

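RNA was measured in 4 LoVo libraries, 2 MET+ and 2 MET-KO. The authors deposited raw counts of reads per gene, 1 file per library, from QuantSeq 3' libraries; 99 spike-in entries were at 0. Per the labels, the submitters' processing notes name bcl2fastq, cutadapt 1.16, FastQC 0.11.7, STAR 2.5.4a, featureCounts 1.6.2, MultiQC 1.5, DESeq2 1.18.1 and GRCh38, without roles. The strand setting, the annotation used for counting and the handling of reads that fit several genes are not given in the sources used here.

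Gene names, positions and overlaps came from GENCODE version 29 on GRCh38, in which 58552 gene IDs were found, and promoter windows from RefSeq (GRCh38.p14). Coding identity was computed from transcripts, because no protein table was used here. Differences were tested in R 4.3.3 with edgeR 4.0.16 (filterByExpr by group, TMM, quasi-likelihood test, Benjamini-Hochberg adjustment over 13801 genes, threshold 0.05). Shares were given with Wilson intervals and an exact two-sided permutation test. A gene with no count was given a floor of 3 counts per library, 0.276 to 0.362 CPM. Replicates differed by more than sampling noise (chi-square per degree of freedom 5.45 in MET+ and 4.86 in MET-KO). No pairing by replicate number was seen: the differences between replicates of the groups correlated at -0.02. With 2 libraries per group, this cannot show whether the libraries were prepared in pairs. The script was tested on simulated data with 200 changed genes.

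Named were the 10 members and MET, at most 4 genes per list (past the threshold, mean log2 CPM of at least 3, groups apart, largest log2 fold change in size), and MYL6B, MYH11, PPP1R12A, PPP1CB, RHOA, RHOB, RHOC, LIMK1, LIMK2 and CFL1 whatever their result. Some list genes count in the totals of their list but are not reported here by name. The members and the 8 pathway and 4 marker lists were chosen with earlier results of these data known. Alternatives were DESeq2 size factors, library totals only, DESeq2 1.42.0, no filter, a minimum of 10 counts in every library, thinning to the smallest library, a replicate block and leaving out each library. Plots were made with matplotlib 3.10.9 (Python 3.11.15).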

Additional observations from a re-analysis of the deposited data

How the results depend on the processing

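No member changed direction under any alternative. Calls changed for MYH14 (lost in DESeq2 and without MET+ or MET-KO replicate 1, as given above), for MYL12A (higher with library totals only) and for MYL6, which passed as lower without MET-KO replicate 1 (-0.22, edgeR adjusted p = 0.0441). Scaling by library totals only moved the pooled log2 ratios to -0.49 for heavy chains, -0.29 for regulatory light chains and -0.06 for the essential light chain. When single libraries were left out, the pooled log2 ratio ran from -0.43 to -0.34 for regulatory light chains and from -0.70 to -0.42 for the ROCK genes. The number of genes called was 7467, against 5760 in DESeq2, 7547 of 23153 without a filter, 6219 of 11844 with at least 10 counts in every library and 6289 to 7083 without single libraries. With the replicate number as a block, 7055 genes were called, and no call on a member changed. With library totals only, 59.2% of calls were higher, while the reported scaling called 3755 genes higher and 3712 lower. Counts as low as those of MYL9 cannot show a difference at this depth, and 2 libraries per group limit every share test.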
